A study of Mus musculus with 15 samples.

Results

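The 39 genes described here are transporters, endocytic receptors, metabolic enzymes and secreted proteins that are known from the proximal tubule of the kidney. They were followed in RNA of fibroblasts that had been sorted from mouse kidney. A gene was taken from the probe sets whose annotation names that gene alone, and where there were several, the one brightest on average over the 15 arrays stood for it. This gave 35 measured genes of 17097 in the whole series, and Lrp2, Slc34a1, Ggt1 and Gatm were not analysed here. A filter on dim genes kept 33 of the 35 among 13523 genes tested. Slc7a13, an apical amino acid transporter, and Napsa, an aspartic protease, did not pass it and lay between 4.05 and 4.86 and between 4.07 and 4.75 on all arrays.

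The cells were PDGFRa-positive fibroblasts of adult C57BL/6 mice, purified by fluorescence-activated sorting. PDGFRa is a growth factor receptor that kidney fibroblasts carry on their surface. The arrays formed 5 groups of 3. Cells were taken 3, 7 or 14 days after folic acid, which injures tubule epithelium and causes acute kidney injury (arrays 1 to 3, 4 to 6 and 7 to 9). Others came from kidney 14 days after unilateral ureteral obstruction (UUO), in which a tied ureter leads to progressive fibrosis (arrays 10 to 12), and from uninjured kidney (arrays 13 to 15). The array numbers are the running numbers of the samples and pair nothing. The labels do not say if the 3 arrays of 1 group are 3 animals, so the p-values reflect how far these samples scatter, and that scatter may be technical. Levels are log2 intensities, given per array or as mean ± SD (n = 3 per group), and each change is a difference of 2 log2 group means, with its standard error (SE). Adjusted p-values come from limma's moderated test with Benjamini-Hochberg adjustment over all 13523 genes, and calls were made below 0.05.

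The proximal tubule reclaims most of the filtered glucose, amino acids, phosphate, bicarbonate and protein. Sodium-coupled carriers and endocytic receptors on its apical side take these up, and basolateral carriers pass them to the blood or draw organic anions and cations from it for secretion. Its cells burn fatty acids and make glucose, and in kidney injury they are known to lose much of this programme. Fibroblasts are not known for these functions, so the genes also serve as markers of tubule RNA in a sort of interstitial cells.

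Proximal tubule genes are known to be switched on by the HNF1 and HNF4 transcription factors, and their upstream sequences are shown for that reason. RefSeq promoter windows of build GRCm38.p6 were matched by symbol for 28 of the 35 measured genes. In the 250 bases before the start, the HNF1 half-site GTTAAT, searched on both strands, occurred in 9 of these 28 genes (32.1%) and in 7.49% of 27025 genes. CAAAGT, a part of the HNF4 site, occurred in 5 (17.9%) against 14.1% of all genes. The nuclear receptor half-site AGGTCA occurred in 8 (28.6%) against 15.8%, and TATAAA in 6 (21.4%) against 14.3%. These spellings were chosen among 12 after the sequences had been searched, and each of the 8 longer ones, some of which contain a shorter one, was held by 0 to 4 of the 28 genes. A match is a description of the letters and not a site in use. Acsm2 and Dnase1, whose values per array also follow, held a match that is not shown. The following lines give the 60 bases around a match for some of the enzymes and transporters whose values per array follow. They are read 5′ to 3′ along the gene, with GTTAAT or its reverse complement ATTAAC in capitals.
G6pc: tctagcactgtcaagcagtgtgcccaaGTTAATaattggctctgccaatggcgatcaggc
Pck1: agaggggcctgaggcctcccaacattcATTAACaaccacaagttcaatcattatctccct
Hao2: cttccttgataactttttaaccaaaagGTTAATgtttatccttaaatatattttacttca
Miox: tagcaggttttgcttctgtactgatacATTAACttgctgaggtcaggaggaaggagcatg
Slc22a6: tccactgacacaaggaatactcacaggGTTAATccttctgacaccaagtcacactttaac
Slc22a8: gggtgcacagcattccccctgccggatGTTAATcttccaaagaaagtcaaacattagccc
The stretches lie upstream of the first base of the gene at chr11:101367468-101367527 on the plus strand for G6pc, chr2:173152854-173152913 (plus) for Pck1, chr3:98893240-98893299 (minus) for Hao2 and chr15:89334304-89334363 (plus) for Miox. Those of the organic anion transporters are at chr19:8617913-8617972 for Slc22a6 and chr19:8593074-8593133 for Slc22a8, both on the plus strand. The match began 221, 192, 42, 142, 56 and 81 bases before the start in that order. Matches were counted over all windows of a gene, so 1 place may count more than once. Hao2 had 3 by this count, of which 1 is shown.

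Across the whole series the array medians lay between 4.93 and 5.06, and 2070 of 13523 genes (15.3%) differed among the 5 groups in limma's F test. Pdgfra was not called in UUO or at any folic acid day against uninjured kidney (adjusted p from 0.465 to 0.988). Its group means lay between 5.28 and 6.69, but it varied within groups. It was 4.96, 4.89 and 6.65 on arrays 4 to 6 and 5.00 and 4.24 on arrays 7 and 8, with array 9 the highest of day 14. Arrays 6 and 9 were the lowest of their groups in the mean of the 35 measured genes, while in UUO array 10 was the highest in both. The lack of calls does not show equal levels, and the part of Pdgfra in the results was not tested. The matrix gene Col1a1, a product of activated fibroblasts, averaged 12.1 ± 0.15 on day 3 after folic acid, 11.8 ± 0.17 on day 7, 11.2 ± 0.51 on day 14, 12.2 ± 0.23 after UUO and 6.81 ± 0.08 in uninjured kidney. No detection calls were used here, so the size of folds against dim values is uncertain.

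Before any comparison, several arrays stood apart from their own group in these genes. Averaged over the 35 measured genes, the log2 level was 6.16, 6.22 and 6.21 on arrays 1 to 3 at day 3 and 8.00, 6.57 and 5.29 on arrays 4 to 6 at day 7. It was 8.70, 8.53 and 6.59 on arrays 7 to 9 at day 14 of folic acid, 5.46, 5.12 and 5.23 on arrays 10 to 12 in UUO, and 7.76, 8.10 and 9.10 on arrays 13 to 15 in uninjured kidney. Array 4 thus lay among the uninjured arrays and array 6 near the UUO arrays, and array 9 lay about as high as array 5, well under the other day 14 arrays. Most of the genes moved together within these groups. Array 4 was the highest of day 7 in 28 of 33 tested genes and array 6 the lowest in 29, where 34.8% and 34.2% of all genes had these arrays at those places. Array 9 was the lowest of day 14 in 32 of 33 (32.8% of all genes). Array 15 was the highest uninjured array in 33 of 33 (34.9%) and array 13 the lowest in 32 (32.1%). The median SD of the 35 genes was 0.32 at day 3, 1.74 at day 7, 1.32 at day 14, 0.29 in UUO and 0.75 in uninjured kidney.

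**Figure D1:**
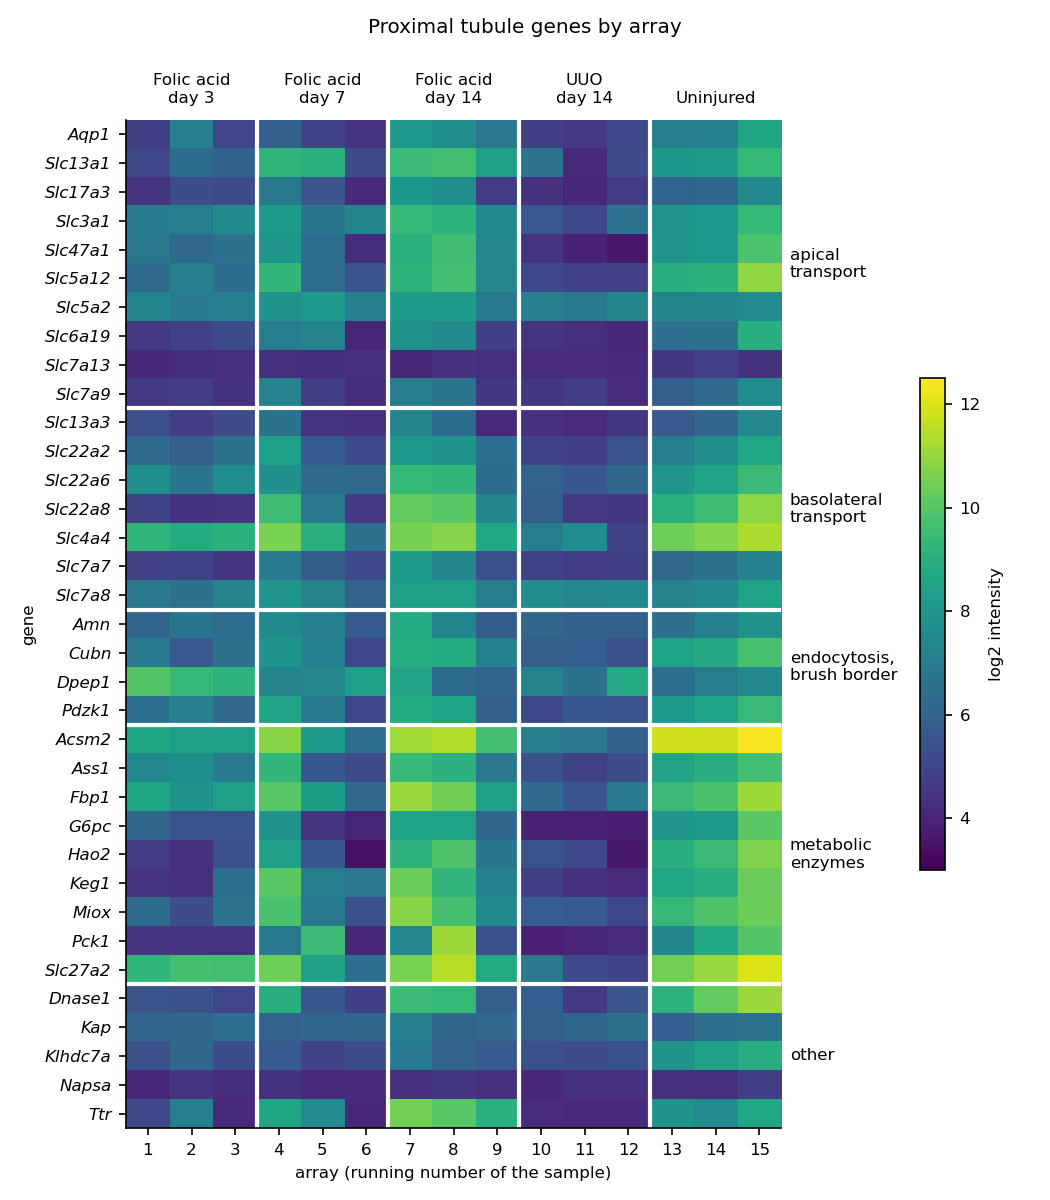
Log2 intensity (colour) of the 35 measured proximal tubule genes (rows, by role and then by name) on 15 arrays (columns, by group). Array 4 at day 7 and arrays 7 and 8 at day 14 of folic acid are bright like the 3 uninjured arrays, and the 3 UUO arrays are dark in most rows.

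Of the 33 tested genes, 18 differed among the 5 groups in the F test, against 15.3% of all genes tested. The count was 11 without array 14 and 10 without array 15, both uninjured. The counts that follow are descriptions of genes chosen for their role. A gene bright in 1 group alone could pass the filter through that group.

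At day 3 of folic acid, 12 of the 33 genes were lower than in uninjured kidney (6.39% of all genes were called lower) and 1, Dpep1, was higher (10.6% called higher). The lowest changes were those of Slc22a8, Dnase1 and Hao2, which were 37.4-, 29.8- and 29.8-fold lower. The median change of the 33 was -2.04, against 0.02 over all genes tested. On every day 3 array 29 of the 33 lay below all uninjured arrays, which held for 19.4% of all genes. The distal nephron and collecting duct markers moved alongside, with 8 of 13 called lower and a summed level, as a mean per array, of 5.99 to 6.45 at day 3 and 8.15 to 8.66 in uninjured kidney. Podocyte markers were called lower in 4 of 5, at 6.05 to 6.49 at day 3 and 7.77 to 8.13 in uninjured kidney. The part of both lists in the result was not tested. The 13 calls became 8 without array 1, 7 without array 14 and 7 without array 15, and 25 when only the 6 arrays compared were fitted.

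At day 7, 7 of the 33 genes were called lower (4.19% of all genes) and 0 higher (7.5%), with a median change of -1.87 (0.01 over all genes). The 7 were Hao2, Dnase1, Acsm2, G6pc, Klhdc7a, Aqp1 and Cubn, and all 7 were also called lower at day 3 and in UUO, comparisons that share the uninjured arrays. Day 7 arrays lay below all uninjured arrays for 9 of 33 genes, against 15.3% of all genes. Distal nephron markers were called lower in 7 of 13, at 7.64, 7.11 and 5.93 on arrays 4 to 6, and podocyte markers in 2 of 5. The count of calls was 17 without array 4, 1 without array 5, 2 without array 6, 3 without array 13, 3 without array 14 and 1 without array 15, and 2 with only the 6 arrays compared.

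By day 14 of folic acid, 1 of the 33 genes was called lower (1.47% of all genes), and this was Klhdc7a, and 0 were called higher (4.2%). The median change was -0.41 (0.02 over all genes). On all arrays 2 genes lay below the uninjured arrays, Klhdc7a and Acsm2, against 12.2% of all genes, and 1 gene, Ttr, lay above them, against 15.5%. Klhdc7a was also the 1 gene at an unadjusted p under 0.05. The 13 distal nephron markers had changes from -1.38 to 0.89 with a median of 0.02, and averaged 7.74 to 8.74 on arrays 7 to 9. With a median SD of 1.32 at day 14, the lack of calls does not show that levels were equal.

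In UUO, 24 of the 33 genes were lower than in uninjured kidney (7.52% of all genes) and 0 were higher (9.07%). All 9 tested metabolic enzymes were among them, with changes from -5.54 for Slc27a2 to -3.88 for Fbp1. The median change of the 33 was -3.32 (-0.01 over all genes), and 29 lay below the uninjured arrays on every UUO array (20.9% of all genes). Here too 12 of 13 distal nephron markers were called lower, at 5.39 to 5.81 in UUO and 8.15 to 8.66 in uninjured kidney, and 4 of 5 podocyte markers were, at 6.06 to 6.63 in UUO and 7.77 to 8.13 in uninjured kidney. In bulk RNA, fewer cells of a type in the sort, less of their RNA carried into it and less RNA per cell cannot be told apart. Left-out arrays gave 17 to 28 calls, which stayed within 1.5 times the count.

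**Figure D2:**
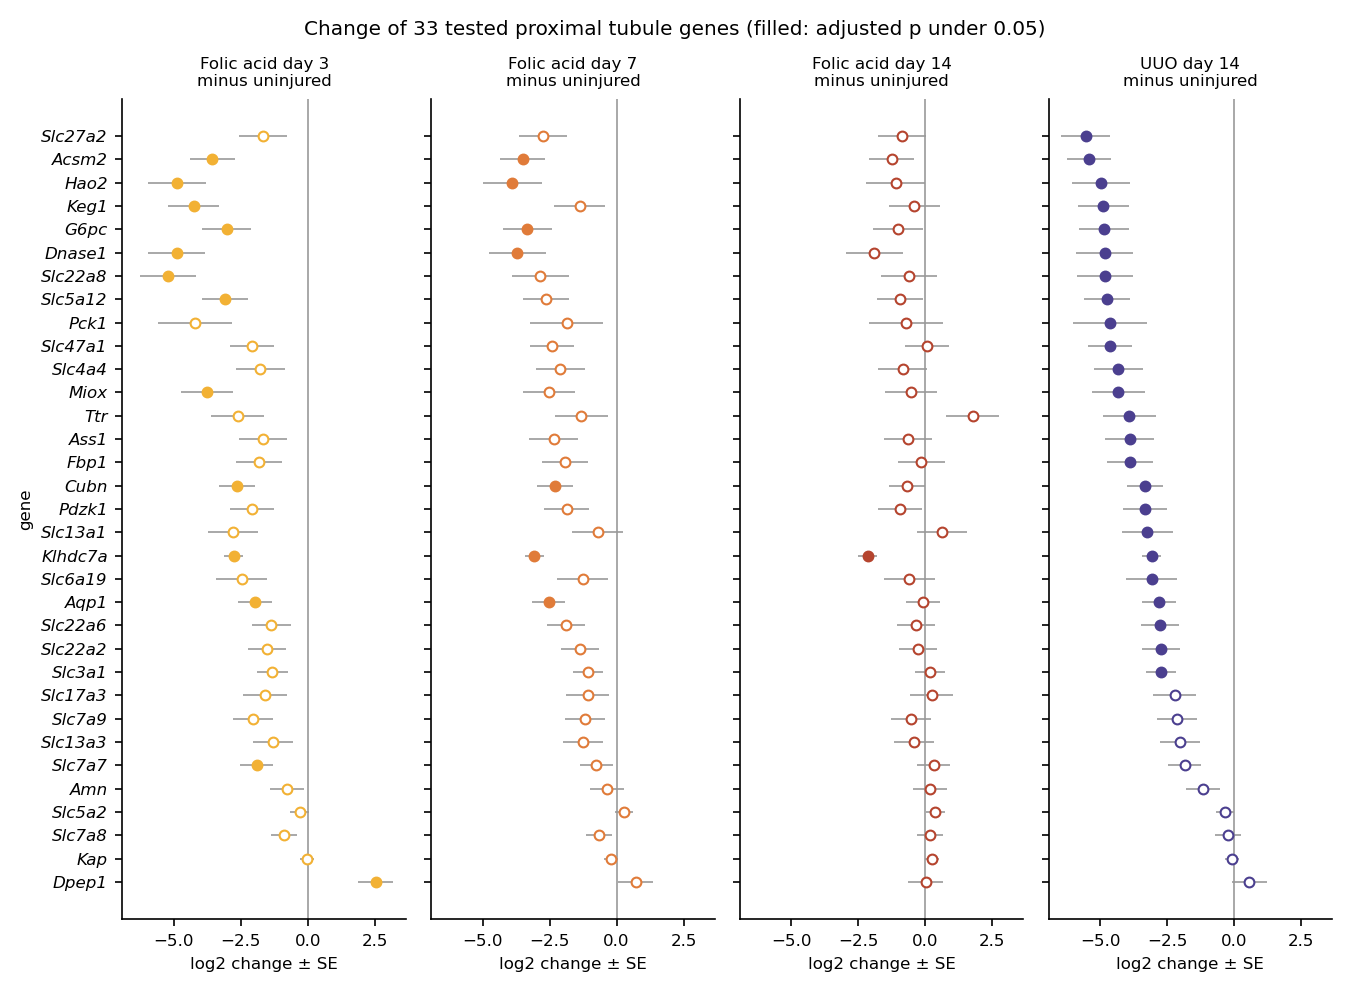
Log2 change with SE of the 33 tested genes at folic acid day 3, day 7 and day 14 and in UUO, each minus uninjured kidney, with genes ordered by their change in UUO. Filled points passed an adjusted p of 0.05: 13 in the day 3 panel, 7 in the day 7 panel, 1 in the day 14 panel and 24 in the UUO panel.

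The single lowest change of the 33 genes was that of a metabolic enzyme in UUO and at day 7, though not at day 3 or day 14. In UUO 9 of 9 tested were called lower (median -4.85), at day 3 5 of 9 (median -3.56), at day 7 3 of 9 (median -2.52) while at day 14 of folic acid the median was -0.72 with no call. Of all genes, 7.52%, 6.39%, 4.19% and 1.47% were called lower in these comparisons in that order. Slc27a2, which carries and activates very long-chain fatty acids, lay at 9.20, 9.69 and 9.62 at day 3, 10.4, 8.42 and 6.45 at day 7, 10.6, 11.5 and 8.79 at day 14, 6.77, 5.15 and 4.95 in UUO, and 10.5, 11.0 and 12.0 in uninjured kidney. The 3 UUO arrays were far below the day 3 arrays and the uninjured arrays, and array 10 alone of them passed array 6 of day 7. The change was -5.54 in UUO (SE 0.90, adjusted p = 0.0013, 46.6-fold lower) and -1.66 at day 3 (SE 0.90, adjusted p = 0.23), where all arrays lay below the uninjured ones without a call.

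Acsm2, a medium-chain acyl-CoA synthetase of mitochondria, lay at 8.62, 8.36 and 8.37 at day 3, 10.8, 8.26 and 6.42 at day 7, 11.2, 11.4 and 9.66 at day 14, 7.03, 6.78 and 5.97 in UUO, and 11.8, 11.8 and 12.4 in uninjured kidney. Every injured array was below every uninjured one. It fell in UUO (-5.42, SE 0.83, adjusted p = 0.000898), at day 3 (-3.56, SE 0.83, adjusted p = 0.011) and at day 7 (-3.51, SE 0.83, adjusted p = 0.0171). The day 7 call was lost without array 5 or array 15, with an adjusted p of up to 0.0652.

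Hao2, a peroxisomal oxidase of hydroxy acids, lay at 4.68, 4.35 and 5.33 at day 3, 8.40, 5.58 and 3.41 at day 7, 9.12, 9.87 and 6.72 at day 14, 5.47, 5.10 and 3.63 in UUO, and 9.01, 9.39 and 10.7 in uninjured kidney. Array 4 lay closest below the uninjured arrays at day 7, and 2 of the day 14 arrays lay among them. Hao2 fell at day 3 (-4.90, SE 1.09, adjusted p = 0.0088), at day 7 (-3.89, SE 1.09, adjusted p = 0.0369) and in UUO (-4.95, SE 1.09, adjusted p = 0.00812). The day 7 call was lost without array 5, 6, 13, 14 or 15, with an adjusted p of up to 0.132.

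Miox, the enzyme that opens inositol for breakdown, lay at 6.37, 5.24 and 6.63 at day 3, 9.77, 6.85 and 5.38 at day 7, 10.8, 9.70 and 7.50 at day 14, 5.86, 5.73 and 5.04 in UUO, and 9.34, 9.86 and 10.4 in uninjured kidney. The day 3 and UUO arrays did not overlap the uninjured ones, and array 7 was the highest of all 15. Miox fell at day 3 (-3.78, SE 0.98, adjusted p = 0.0195) and in UUO (-4.31, SE 0.98, adjusted p = 0.00952). The day 3 call was lost without array 2, 14 or 15, with an adjusted p of up to 0.0716, and day 7 gained a call without array 4 (adjusted p = 0.012).

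G6pc, which releases free glucose in the last step of glucose production, lay at 6.21, 5.48 and 5.45 at day 3, 7.86, 4.42 and 3.98 at day 7, 8.50, 8.52 and 6.14 at day 14, 3.94, 3.92 and 3.84 in UUO, and 7.98, 8.20 and 10.1 in uninjured kidney. The UUO values were the lowest of all groups and nearly alike. G6pc fell in UUO (-4.85, SE 0.93, adjusted p = 0.00364, 28.8-fold lower), at day 3 (-3.03, SE 0.93, adjusted p = 0.0416) and at day 7 (-3.33, SE 0.93, adjusted p = 0.0363). The day 3 call was lost without any 1 of arrays 1 to 3 or 10 to 15 (adjusted p up to 0.159), and the day 7 call without array 5, 6, 13, 14 or 15 (up to 0.143).

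Pck1, which starts glucose production from oxaloacetate, was the most scattered of the enzymes. It lay at 4.48, 4.43 and 4.42 at day 3, 6.86, 9.46 and 4.09 at day 7, 7.42, 11.1 and 5.30 at day 14, 3.86, 4.03 and 4.19 in UUO, and 7.37, 8.69 and 9.95 in uninjured kidney. At days 7 and 14 its highest array was not the one highest in most other genes: array 5 led day 7 and array 8 led day 14. Pck1 fell in UUO (-4.64, SE 1.38, adjusted p = 0.037) and had -4.23 at day 3 (SE 1.38, adjusted p = 0.0535). The UUO call was lost without array 10, 11, 12, 14 or 15 (adjusted p up to 0.136), and a day 3 call was gained without array 5, 6, 8 or 9 (down to 0.0206).

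The remaining enzymes were also called lower in UUO. Keg1, of the glycine acyltransferase-like family, changed by -4.89 (SE 0.95, adjusted p = 0.00414), Ass1, which joins citrulline and aspartate on the way to arginine, by -3.90 (SE 0.90, adjusted p = 0.0107) and Fbp1, a glucose-producing phosphatase, by -3.88 (SE 0.86, adjusted p = 0.00877). At day 3 Keg1 fell (-4.26, SE 0.95, adjusted p = 0.00907), while Ass1 had -1.69 and Fbp1 -1.82 without a call (adjusted p = 0.224 and 0.174).

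**Figure D3:**
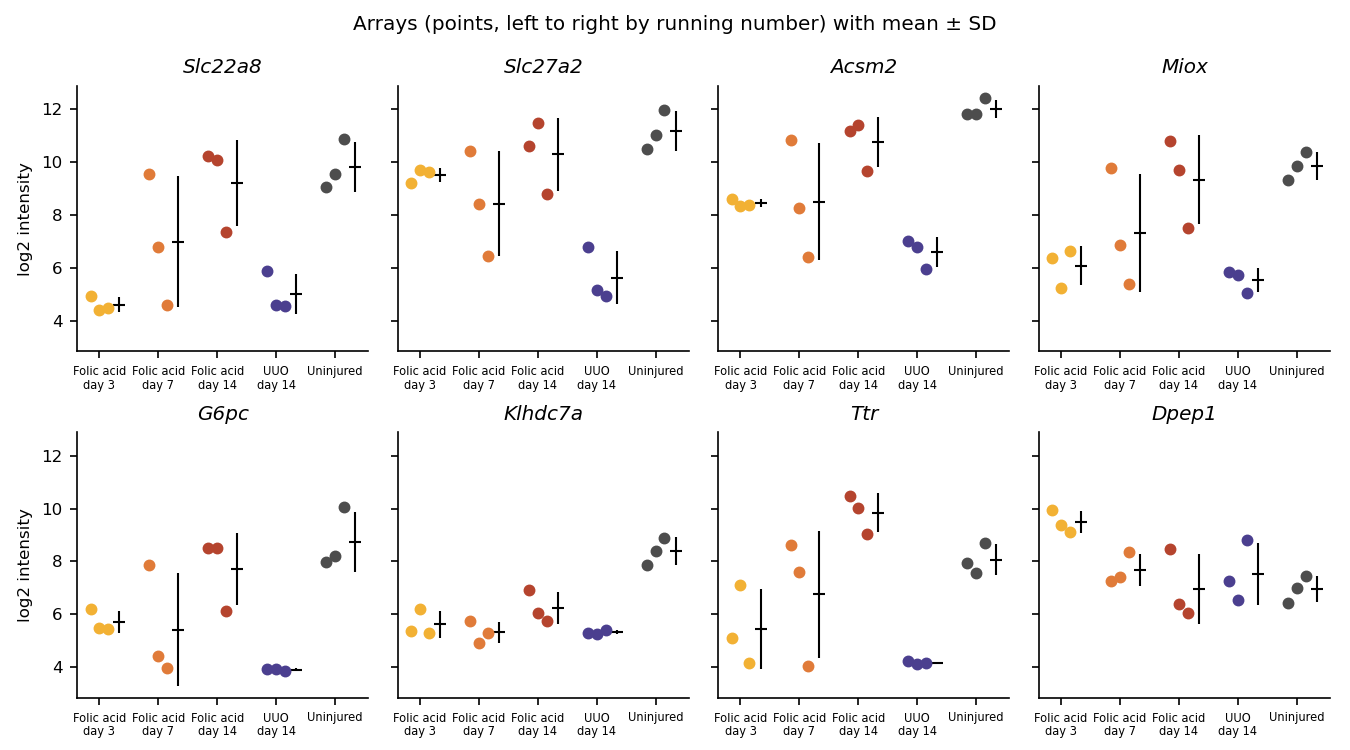
Log2 intensity of 8 proximal tubule genes on each array (points, 3 per group in the order of their numbers) with the group mean ± SD (black). Slc22a8 at day 3 is as low as in UUO, Slc27a2 is high at day 3 and low in UUO, Ttr is highest at day 14 of folic acid, Klhdc7a is below the uninjured arrays in every injured group and Dpep1 is highest at day 3.

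Among apical carriers, 6 of 9 tested were called lower in UUO (7.52% of all genes), 2 at day 3 (6.39%) and 1 at day 7 (4.19%). The median change at day 14 of folic acid was 0.06 with no call (1.47% of all genes called lower). Slc13a1, the sodium sulphate cotransporter, lay at 5.01, 6.35 and 5.95 at day 3, 9.23, 9.07 and 5.23 at day 7, 9.45, 9.64 and 8.40 at day 14, 6.63, 4.13 and 5.20 in UUO, and 8.06, 8.24 and 9.36 in uninjured kidney. All day 14 arrays reached the uninjured range, and so did 2 of the 3 day 7 arrays. Slc13a1 fell in UUO (-3.23, SE 0.94, adjusted p = 0.0334) and had -2.78 at day 3 (adjusted p = 0.0609) and 0.61 at day 14 (adjusted p = 0.768). The UUO call was lost without any 1 of arrays 11 to 15 (adjusted p up to 0.125), and a day 3 call was gained without array 4 or 6 (down to 0.00818).

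Slc47a1, which extrudes organic cations into the tubule lumen, lay at 6.79, 6.26 and 6.56 at day 3, 8.04, 6.44 and 4.24 at day 7, 9.07, 9.60 and 7.41 at day 14, 4.43, 3.91 and 3.64 in UUO, and 7.97, 8.13 and 9.80 in uninjured kidney. UUO arrays lay below every day 3 array and every uninjured array. Slc47a1 fell in UUO (-4.64, SE 0.82, adjusted p = 0.00232, 24.9-fold lower) and had -2.10 at day 3 (SE 0.82, adjusted p = 0.102). A day 3 call was gained without array 6 (adjusted p = 0.0379).

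Aqp1, the water channel of the proximal tubule and descending limb, which capillary endothelium also carries, lay at 4.81, 7.14 and 4.97 at day 3, 5.91, 4.91 and 4.44 at day 7, 8.11, 7.66 and 6.81 at day 14, 4.79, 4.59 and 5.08 in UUO, and 7.04, 7.18 and 8.63 in uninjured kidney. Array 2 of day 3 lay among the uninjured arrays while its 2 companions were near the UUO level. Aqp1 fell at day 7 (-2.53, SE 0.62, adjusted p = 0.0211) and in UUO (-2.79, SE 0.62, adjusted p = 0.00877), and was called at day 3 (-1.98, SE 0.62, adjusted p = 0.0465) although the groups overlapped. The day 3 call was lost without any 1 of arrays 1, 3, 5, 8 or 10 to 15 (adjusted p up to 0.179), and the day 7 call without array 5, 6 or 15 (up to 0.0913). Of 7 endothelial markers tested, 3 were called lower at day 3 (6.39% of all genes) and 1 higher (10.6%). In UUO 2 were called lower (7.52%) and 0 higher, and at days 7 and 14 of folic acid none was called. Their part in the level of Aqp1 was not tested.

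Slc5a2, the glucose carrier of the early proximal tubule and the target of gliflozin drugs, varied little. It lay at 7.30, 6.94 and 7.07 at day 3, 7.87, 8.11 and 7.07 at day 7, 8.26, 8.22 and 6.90 at day 14, 7.05, 6.82 and 7.34 in UUO, and 7.32, 7.33 and 7.59 in uninjured kidney. Its changes against uninjured kidney lay between -0.34 in UUO (SE 0.34, adjusted p = 0.558) and 0.38 at day 14 (SE 0.34, adjusted p = 0.588). The lactate carrier Slc5a12 fell at day 3 (-3.10, SE 0.86, adjusted p = 0.0275) and in UUO (-4.75, SE 0.86, adjusted p = 0.0027). In UUO the amino acid carrier Slc6a19 (-3.07, adjusted p = 0.0451) and the cystine transporter subunit Slc3a1 (-2.72, adjusted p = 0.0062) were called lower. The partner of Slc3a1, Slc7a9, had -2.13 (adjusted p = 0.0719) and the anion carrier Slc17a3 had -2.22 (adjusted p = 0.082), both with all UUO arrays below the uninjured ones.

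Of the 7 basolateral carriers, 4 were called lower in UUO (7.52% of all genes) and 2 at day 3 (6.39%). No call was made at day 7 or day 14 of folic acid (4.19% and 1.47% of all genes called lower). Slc22a8, an organic anion transporter, lay at 4.93, 4.39 and 4.48 at day 3, 9.55, 6.80 and 4.60 at day 7, 10.2, 10.1 and 7.34 at day 14, 5.87, 4.60 and 4.56 in UUO, and 9.05, 9.55 and 10.9 in uninjured kidney. The day 3 arrays were as low as the UUO arrays, and arrays 4, 7 and 8 were as high as the uninjured ones. Slc22a8 fell at day 3 (-5.23, SE 1.06, adjusted p = 0.00526, 37.4-fold lower) and in UUO (-4.82, SE 1.06, adjusted p = 0.00812). At day 7 it had -2.84 (SE 1.06, adjusted p = 0.105) and was called without array 4 (adjusted p = 0.0124). Its other probe set had -0.91 at day 3 and -0.89 in UUO, and the mean of both had -3.07 (adjusted p = 0.00602) and -2.86 (adjusted p = 0.00885).

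Slc22a6, another organic anion transporter, whose gene lies on the same chromosome, lay at 7.69, 6.65 and 7.62 at day 3, 7.77, 6.31 and 6.28 at day 7, 9.38, 9.26 and 6.35 at day 14, 5.99, 5.59 and 6.20 in UUO, and 7.99, 8.56 and 9.48 in uninjured kidney. All day 3, day 7 and UUO arrays were under the uninjured range, array 4 and arrays 1 and 3 by the least. The change was -2.75 in UUO (SE 0.72, adjusted p = 0.0199), -1.89 at day 7 (adjusted p = 0.11) and -1.36 at day 3 (SE 0.72, adjusted p = 0.218). The UUO call was lost without array 11, 14 or 15 (adjusted p up to 0.0855), and a day 7 call was gained without array 9 (0.0223).

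In UUO the bicarbonate cotransporter Slc4a4 (-4.32, SE 0.91, adjusted p = 0.00655) and the organic cation transporter Slc22a2 (-2.74, SE 0.71, adjusted p = 0.0199) were also lower. The cationic amino acid exchanger subunit Slc7a7 was called at day 3 (-1.92, SE 0.61, adjusted p = 0.0475) and had -1.84 in UUO (adjusted p = 0.0573). The dicarboxylate carrier Slc13a3 had -2.01 in UUO (adjusted p = 0.0901). Slc7a8, a neutral amino acid exchanger that is also found outside the proximal tubule, averaged 7.53 ± 0.14 in UUO and 7.75 ± 0.63 in uninjured kidney (-0.22, SE 0.49, adjusted p = 0.815).

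Of the endocytic receptors, Cubn, which takes up filtered proteins, lay at 6.84, 5.66 and 6.50 at day 3, 7.93, 7.19 and 5.01 at day 7, 8.89, 8.84 and 7.17 at day 14, 5.88, 5.83 and 5.30 in UUO, and 8.52, 8.75 and 9.72 in uninjured kidney. Every day 3, day 7 and UUO array lay below the uninjured ones. Cubn fell at day 3 (-2.66, SE 0.67, adjusted p = 0.0174), at day 7 (-2.29, SE 0.67, adjusted p = 0.0457) and in UUO (-3.32, SE 0.67, adjusted p = 0.00517). The day 3 call was lost without array 2 or 15 (adjusted p up to 0.0751), and the day 7 call without any 1 of arrays 1 to 3, 5, 6, 8 or 10 to 15 (up to 0.162) or with the mean of its probe sets (0.0762).

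Amn, which anchors Cubn in the membrane, averaged 6.39 ± 0.29 at day 3, 6.81 ± 0.94 at day 7, 7.34 ± 1.52 at day 14, 6.01 ± 0.10 in UUO and 7.17 ± 0.69 in uninjured kidney, and was called in none of these comparisons. Its change in UUO was -1.16 (SE 0.64, adjusted p = 0.252). The apical scaffold gene Pdzk1 fell in UUO (-3.32, SE 0.83, adjusted p = 0.0164) and had -2.09 at day 3 (adjusted p = 0.106).

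Dpep1, a dipeptidase of the brush border, went the other way. It lay at 9.93, 9.38 and 9.13 at day 3, 7.25, 7.40 and 8.36 at day 7, 8.48, 6.38 and 6.05 at day 14, 7.25, 6.53 and 8.81 in UUO, and 6.44, 6.98 and 7.44 in uninjured kidney. The day 3 arrays were above all others, and array 6, the lowest of day 7 in most of the genes, was the highest of day 7 here. Dpep1 rose at day 3 (2.53, SE 0.65, adjusted p = 0.0195, 5.76-fold) and was called in no other comparison with uninjured kidney. The call was lost without array 1, 13 or 14, with an adjusted p of up to 0.0712.

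Among the secreted and remaining genes, Dnase1, a secreted nuclease, lay at 5.43, 5.34 and 4.97 at day 3, 8.95, 5.59 and 4.79 at day 7, 9.51, 9.35 and 5.87 at day 14, 5.84, 4.60 and 5.52 in UUO, and 9.16, 10.2 and 11.1 in uninjured kidney. Day 3 and UUO arrays were alike and far below the uninjured ones. Dnase1 fell at day 3 (-4.90, SE 1.07, adjusted p = 0.00798, 29.8-fold lower), at day 7 (-3.70, SE 1.07, adjusted p = 0.042) and in UUO (-4.82, SE 1.07, adjusted p = 0.00845). The day 7 call was lost without any 1 of arrays 1 to 3, 5, 6 or 10 to 15 (adjusted p up to 0.144).

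Klhdc7a was the gene called lower in all 4 comparisons with uninjured kidney. It lay at 5.36, 6.21 and 5.28 at day 3, 5.74, 4.93 and 5.28 at day 7, 6.94, 6.04 and 5.76 at day 14, 5.30, 5.25 and 5.40 in UUO, and 7.85, 8.40 and 8.91 in uninjured kidney. No injured array reached the uninjured range, and arrays 4, 7 and 8 were no exception. The changes were -2.77 at day 3 (SE 0.36, adjusted p = 0.000269), -3.07 at day 7 (adjusted p = 0.000185), -2.14 at day 14 (adjusted p = 0.00444) and -3.07 in UUO (adjusted p = 0.000143). Each of the 4 calls held without any single array.

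Ttr, a carrier of thyroxine and retinol-binding protein best known from liver and choroid plexus, was the gene with the highest change at day 14. It lay at 5.11, 7.09 and 4.14 at day 3, 8.63, 7.60 and 4.06 at day 7, 10.5, 10.0 and 9.03 at day 14, 4.22, 4.13 and 4.15 in UUO, and 7.93, 7.58 and 8.70 in uninjured kidney. On this probe set all day 14 arrays were above, and all UUO arrays below, the uninjured ones. On a second probe set array 9 (6.52) was below arrays 13 (6.64) and 15 (7.50), and the changes were 0.62 at day 14 and -0.77 in UUO, so their size rests on the probe set chosen. The change was 1.77 at day 14 (SE 0.98, adjusted p = 0.344), which was not called, and -3.90 in UUO (SE 0.98, adjusted p = 0.017), a call lost without array 15 (adjusted p = 0.0662). At day 3 it was -2.62 (adjusted p = 0.0886) and was called without array 2 or 6 (down to 0.0153).

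Kap, an androgen-dependent protein of the mouse proximal tubule, lay at 6.07, 6.17 and 6.49 at day 3, 6.00, 6.11 and 6.14 at day 7, 7.10, 6.21 and 6.29 at day 14, 5.89, 6.16 and 6.51 in UUO, and 5.83, 6.38 and 6.61 in uninjured kidney. These groups overlapped and the changes lay between -0.19 and 0.26. A second probe set of Kap ran from 3.24 to 8.44 over the arrays and averaged 4.66 ± 0.36 at day 3, 5.61 ± 2.27 at day 7, 6.54 ± 2.35 at day 14, 4.71 ± 1.87 in UUO and 7.05 ± 1.02 in uninjured kidney, so the probe sets of this gene disagree. Of 11 genes on more than 1 probe set, none had the opposite sign on another in UUO against uninjured kidney. Kap and Slc22a6 did at day 14 of folic acid against uninjured kidney, and Slc7a13 in UUO against day 14. Sizes often differed: in UUO the other probe set of Cubn had -1.39, that of Slc13a1 -0.85, that of Ass1 -0.47 and those of Slc4a4 between -3.02 and -0.29.

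The models could be compared at the same time, 14 days. In UUO 11 of the 33 genes were lower than at day 14 of folic acid (1.75% of all genes) and 0 were higher (1.28%). They were Ttr, Slc47a1, Slc27a2, Keg1, Acsm2, Slc13a1, G6pc, Slc5a12, Fbp1, Slc3a1 and Aqp1, that is 5 apical carriers, 5 metabolic enzymes and Ttr, and no basolateral carrier was called (Slc22a8 had -4.21, adjusted p = 0.0525). On every UUO array 26 of 33 lay below all day 14 folic acid arrays (11.1% of all genes), and the median change was -2.90 (-0.01 over all genes). On the probe sets used, the lowest change was that of Ttr (-5.67, SE 0.98, adjusted p = 0.0114, 51.1-fold lower), but its other probe set had -1.39, and the mean of both had -3.53 (adjusted p = 0.0144). Next came Slc47a1 (-4.70, SE 0.82, adjusted p = 0.0117, 26.1-fold) and Slc27a2 (-4.67, SE 0.90, adjusted p = 0.0171, 25.4-fold). Dpep1 (0.56, adjusted p = 0.764) had the one positive change of the 33. Other lists differed as well. Distal nephron markers were called lower in 11 of 13, with a median of -2.42. Podocyte markers were called lower in 2 of 5 and macrophage markers in 6 of 10, while 6 of 10 fibroblast markers were called higher. The part of these lists was not tested.

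Array 9 decided much of this comparison. Without it 26 genes were called, and without array 4, which is in neither group, 18. The count was 2 without array 7, 8 or 11, 3 without array 12, 4 without array 10, 6 without array 14 and 7 without array 1, 3 or 13, and 4 with only the 6 arrays compared. It was 6 with no filter on dim genes. The calls of Ttr and Slc47a1 held without any single array. Those of Slc27a2 and Acsm2 (-4.16, adjusted p = 0.0189) were lost without array 7, 8, 11 or 12 (adjusted p up to 0.0665 and 0.0728). The call of Slc13a1 (-3.84, adjusted p = 0.0475) was lost without any 1 of arrays 1 to 3, 7, 8 or 10 to 15 (up to 0.167). That of G6pc (-3.82, adjusted p = 0.0461) was lost without arrays 1 to 3, 5, 7, 8 or 10 to 14 (up to 0.144), and that of Aqp1 (-2.71, adjusted p = 0.0385) without array 5, 7, 8 or 10 to 14 (up to 0.123).

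Between days 3 and 14 of folic acid, 2 genes were called higher at day 14 (1.22% of all genes), Slc22a8 (4.61, SE 1.06, adjusted p = 0.0381) and Ttr (4.40, SE 0.98, adjusted p = 0.0336). All day 14 arrays lay above the day 3 arrays for 13 of 33 genes (9.36% of all genes), and the median change was 1.83. Distal nephron markers were called higher in 6 of 13, and 12 of them lay above on all arrays. Podocyte markers were called higher in 3 of 5 and macrophage markers in 5 of 10, while 1 of 10 fibroblast markers was lower. The part of these lists was not tested. For the 33 genes the count of calls was 9 without array 9, 6 without array 4 and 5 without array 6. It was 0 without array 1, 3, 8, 11, 13 or 14, and 1 with only the 6 arrays compared. Without array 7 both calls were lost and 1 gene, Dpep1, was called lower instead. The call of Slc22a8 was lost without any 1 of arrays 1 to 3, 7, 8 or 11 to 14 (adjusted p up to 0.117), and that of Ttr without array 1, 3, 7, 8, 11, 13 or 14 (up to 0.119). With the mean of its probe sets Slc22a8 had 2.50 and was not called (adjusted p = 0.0504). At day 7 against day 3, limma called 0 lower and 0 higher (0.422% and 0.274% of all genes), with 1 lower and 3 higher at an unadjusted p under 0.05, and 1 call without array 6. At day 14 against day 7 it called 0 lower and 0 higher (0.0444% and 0.00739%), with 0 lower and 9 higher at an unadjusted p under 0.05, and 1 call without array 4.

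UUO and day 3 of folic acid, the groups with the lowest levels, were compared after the values had been seen. Here limma called 0 of 33 genes (0.606% of all genes were called lower), with 8 lower and 0 higher at an unadjusted p under 0.05. UUO arrays lay below all day 3 arrays for 16 of 33 genes, against 12% of all genes, with a median change of -0.66. Slc27a2 had the lowest change (-3.88, SE 0.90, adjusted p = 0.0664) and was called without array 4, 6 or 9 (down to 0.0231), where the count was 1. Fitted on only the 6 arrays compared, 6 genes were called lower.

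Genes outside the 39 were also called. A list of others known from the proximal tubule held 63 symbols, and 51 genes from it were tested. Of these 51, 23 were called lower in UUO, made up of 8 of 20 carriers and 15 of 31 enzymes and brush border proteins (7.52% of all genes). At day 3 12 were lower (6.39%) and at day 7 8 (4.19%). At day 14 of folic acid 2 were lower (1.47%) and 1 (4.2% of all genes called higher), the brush border peptidase Anpep, was higher (1.06, SE 0.28, adjusted p = 0.0446). In UUO the collectrin gene Cltrn, a partner of amino acid carriers, changed by -5.43 (SE 0.93, adjusted p = 0.00184) and the glucose carrier Slc2a2 by -3.35 (SE 0.63, adjusted p = 0.00337). Of 4 tested transcription factors of this segment 3 were called lower in UUO, among them Hnf4a (-3.61, SE 0.94, adjusted p = 0.0195) and Ppara, a regulator of fatty acid oxidation (-2.23, SE 0.55, adjusted p = 0.0155). The remaining factor, Maf, went the other way and was not called in UUO (0.98), with all UUO arrays above the uninjured ones. At day 3 Maf was called higher (2.00, SE 0.41, adjusted p = 0.00573).

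**Figure D4:**
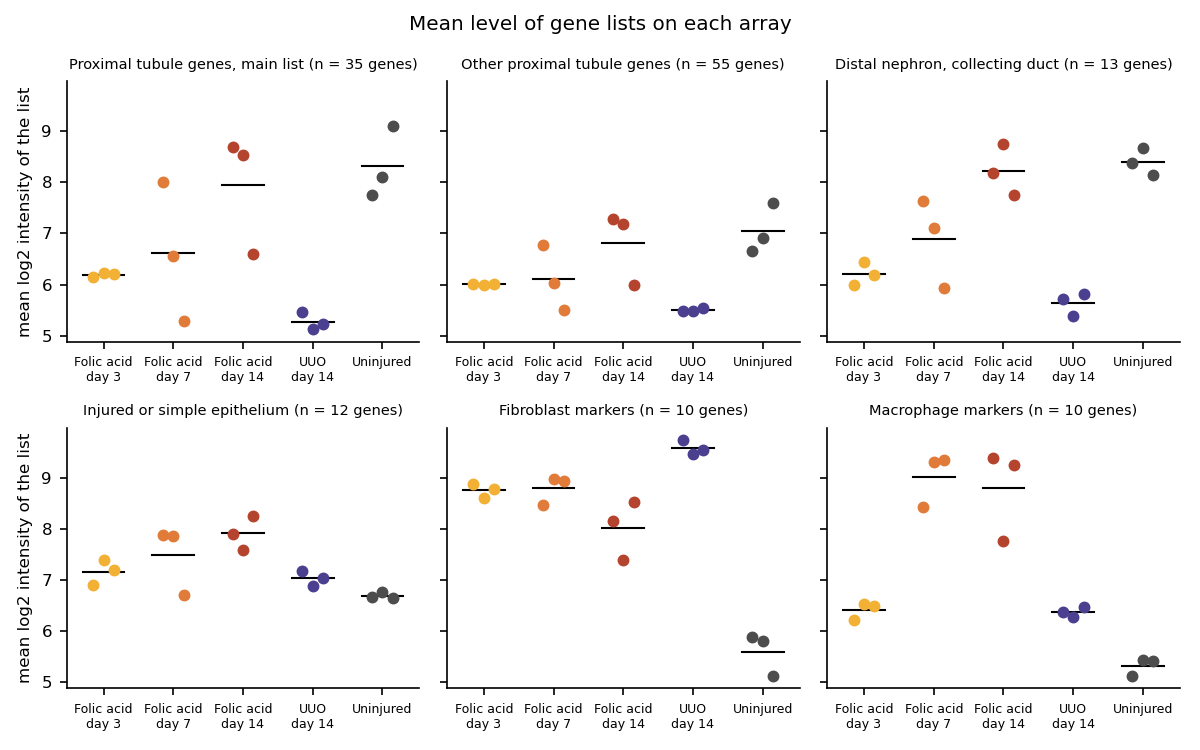
Mean log2 intensity of 6 gene lists on each array (points, 3 per group in the order of their numbers) with the group mean (line). Proximal tubule and distal nephron lists are low at day 3 of folic acid and in UUO, and the fibroblast list is low in uninjured kidney.

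Lists for other cell types differed between the same groups, but did not all follow the same arrays within a group, and their part in the results was not tested. The mean of 10 fibroblast markers was 8.60 to 8.88 at day 3, 8.46 to 8.97 at day 7, 7.38 to 8.53 at day 14, 9.46 to 9.74 in UUO and 5.12 to 5.88 in uninjured kidney, and 8 of the 10 were called higher in UUO and 6 at each folic acid day, where 9.07% of all genes were called higher in UUO, 10.6% at day 3, 7.5% at day 7 and 4.2% at day 14. Within groups the fibroblast list was lowest on arrays 4 (day 7), 8 (day 14) and 15 (uninjured), of which 4 and 15 were the highest of their groups in the proximal tubule genes. The mean of 10 macrophage markers was 6.22 to 6.52 at day 3, 8.42 to 9.34 at day 7, 7.76 to 9.39 at day 14, 6.27 to 6.46 in UUO and 5.11 to 5.44 in uninjured kidney, and 3, 9, 8 and 2 of the 10 were called higher in the 4 injured groups in that order, against the same shares of all genes. On array 9 the macrophage list was at 9.25, against 9.39 and 7.76 on arrays 7 and 8. Of 12 markers of injured or simple epithelium, 2 were called higher on day 3, 3 on day 7, 2 on day 14 of folic acid and 2 after UUO, where the cadherin gene Cdh1 was lower (-2.13, adjusted p = 0.0145). Of all genes, 10.6%, 7.5%, 4.2% and 9.07% were called higher in that order. The median changes of the 12 were 0.10, 0.21, 0.72 and 0.18, so the list did not rise as a whole to the extent of the single genes that follow. Lcn2, a secreted protein of injured tubules, was higher in all 4 groups (5.51, 4.04, 4.31 and 3.69 in the same order). Havcr1, a gene of injured proximal tubule cells, averaged 6.83 ± 1.25 at day 3, 9.22 ± 1.97 at day 7, 7.48 ± 0.47 at day 14, 6.29 ± 0.93 in UUO and 4.79 ± 0.16 in uninjured kidney. Of the 4 comparisons with uninjured kidney Havcr1 was called at day 7 (4.43, SE 0.85, adjusted p = 0.00556), where array 4 held 11.0, array 5 9.50 and array 6 7.12.

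The proximal tubule genes and the distal nephron markers did not keep 1 ratio between arrays. On array 15 the 35 genes averaged 9.10, the highest of all arrays, and the distal markers 8.15, the lowest of the uninjured arrays. On array 9 the 35 genes averaged 6.59, against 8.70 and 8.53 on arrays 7 and 8, while the distal markers averaged 7.74, against 8.19 and 8.74. Podocyte markers averaged 7.47 on array 9 and 7.34 and 7.45 on its companions, and 7.12 on array 6, the lowest day 7 array in the 35 genes, against 6.68 and 7.09 on arrays 4 and 5.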

How the data were processed

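RNA of PDGFRa-positive cells was hybridised to 15 arrays, and the authors deposited log2 values for 45141 probe sets. RMA, affy and limma are named in the submitters' processing notes, with no version or role. The lowest value was 2.43 and the highest 13.1. Identical arrays numbered 0, and nothing was normalized again. The platform annotation named 1 gene for 28898 probe sets, several for 551 and none for 15692. By Entrez identifier 28689 matched and 0 symbols changed. Genes went into the test when 3 or more arrays had them over the 40th percentile of all probe sets.

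The fit, with a mean for each group, used lmFit and eBayes of limma 3.58.1 under R 4.3.3 on 15 arrays (10 residual degrees of freedom, 2-sided tests). The fit was tested on simulated data. Groups came from the sample titles. Values per array are given for a chosen list of genes and, in each comparison with uninjured kidney and in UUO against folic acid day 14, for the 3 lowest and 2 highest changes. For other genes the 2 called with the smallest p of a list could be named. The members, lists and motifs were chosen with earlier results of these data known. Alternatives were centring on the median, quantile normalization, limma's trend and robust options, weights per array, no filter or the 60th percentile, the mean of probe sets, a threshold of 0.01, only the 6 arrays compared, and leaving out each array. Precision is limited by how few arrays there are.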

Additional observations from a re-analysis of the deposited data

Results flagged for a closer look

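The comparisons among the injured groups stand out because they test a difference between effects measured against the same uninjured arrays. Between the models at 14 days, 11 genes differed, all lower in UUO than at day 14 of folic acid: among those with values per array, Ttr by -5.67, Slc47a1 by -4.70, Slc27a2 by -4.67, Acsm2 by -4.16, Slc13a1 by -3.84, G6pc by -3.82 and Aqp1 by -2.71 on the log2 scale. Between time points of folic acid, 2 genes differed, Slc22a8 by 4.61 and Ttr by 4.40, both higher at day 14 than at day 3. Each difference passed limma's moderated test over all genes at an adjusted p of 0.05, but at 0.01 both counts were 0. Leaving out single arrays gave 2 to 26 calls between the models and 0 to 9 between days 3 and 14. With the mean of its probe sets Slc22a8 was not called (adjusted p = 0.0504). On its other probe set Ttr had -1.39 between the models. Distal nephron markers differed too. Of 13, 11 were called lower in UUO than at day 14 and 6 higher at day 14 than at day 3. With 3 arrays a group, no test for a single outlying value was run.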

How the results depend on the processing

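No called gene with values per array changed direction in the comparisons with uninjured kidney, in UUO against day 14 or in day 14 against day 3 under the alternatives run. The per-gene values for day 14 against day 3 were added after seeing the data. Centring on the median, quantile normalization, limma's trend and robust options and the mean of probe sets left each count of calls within 1.5 times, and for folic acid day 14 or UUO against uninjured kidney every setting did, with 1 to 1 and 17 to 28 calls when arrays were left out. At a threshold of 0.01 the counts were 5 for day 3, 1 for day 7, 0 for UUO against day 14, 0 for day 14 against day 3 and 5 in the F test. With only the 6 arrays compared they were 25 for day 3, 2 for day 7, 4 for UUO against day 14, 1 for day 14 against day 3 and 6 for UUO against day 3. Without a filter UUO against day 14 gave 6. At the 60th percentile day 14 against day 3 gave 4 and UUO against day 3 gave 1, as did array weights for UUO against day 3. Leaving out single arrays gave 7 to 18 calls for day 3, 1 to 17 for day 7, 2 to 26 for UUO against day 14, 0 to 1 for day 7 against day 3, 0 to 1 for day 14 against day 7, 0 to 9 for day 14 against day 3, 0 to 1 for UUO against day 3 and 10 to 26 in the F test. Where a left-out array leaves a smaller group, fewer samples lie behind the change. In the fit of all groups a gene has a single estimate of spread, so an array of any group enters every comparison. The cause of the other moves was not tested. No paired analysis was possible because the groups share no replicate number. Signal over background was not used, so changes of dim genes are uncertain in size.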
